A study of Homo sapiens and Mus musculus with 24 samples.

Results

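HEK293 is an established human cell line of embryonic kidney origin, and its RNA was compared here between UV-irradiated and nonirradiated cells across RNA classes and protein-coding functions. The 6 HEK293 libraries, chosen by their source name, were 3 irradiated and 3 nonirradiated samples of the 24 samples in the series, and 20472 of the 58381 genes in the human files were tested because their nonirradiated mean reached 0.5 CPM, a count relative to the total of its library. The series applied UV irradiation followed by phenol extraction (UPA-seq) to 4 kinds of cultured human and mouse cells to ask which transcripts, long noncoding RNAs (lncRNAs) above all, leave the aqueous phase. The irradiated group was UV-irradiated HEK293 cells with RNA taken from the aqueous phase of a TRIzol extraction, the nonirradiated group was HEK293 cells extracted in the same way without UV, and both were depleted of ribosomal RNA before sequencing. The labels name no genotype, transgene or drug for either group, and the cell culture methods speak of HEK293T, a derivative of HEK293, where the labels say HEK293. The labels number the samples as replicates without naming separate cultures, while the study describes its read data as biological triplicates. The p-values measure the spread between these samples, and those of the gene tests also draw on the spread of other genes.

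UV light joins RNA covalently to proteins in direct contact with it. In an acid phenol extraction, free RNA stays in the aqueous phase and RNA carrying crosslinked protein moves to the interphase, so a library of the aqueous phase holds the RNA that was recovered without protein. A gain or loss of reads in such a library is a change relative to the other RNAs of the library. It can come from recovery or, as the study proposes for its RT-qPCR values, from crosslinks that hinder reverse transcription. No measurement here separates these from each other, or from a change in the amount of RNA per cell or in the number of cells.

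Total counts ranged from 9444707 to 9661548 in the nonirradiated and from 9562515 to 11188033 in the irradiated libraries. The nonirradiated libraries had a count on 30066 to 33480 genes, and the irradiated ones on 24210 to 25676. All 7 genes fixed as reported HEK293 markers, intermediate filaments and adhesion molecules such as VIM and CDH2, reached 0.5 CPM, with summed levels of 1220 to 1790 CPM without UV and 1240 to 1980 CPM after it. VIM went from a mean of 666 to 805 CPM and CDH2 from 137 to 37.8. Of 10 hepatocyte markers 1 reached 0.5 CPM without UV and 3 had no count, and of 6 blood cell markers none reached it. That level was also reached by 6 of 7 kidney lineage markers, 4 of 6 neuron markers and 2 of 5 fibroblast markers. Irradiated library 1 stood apart: mitochondrial ribosomal RNA took 1.5% of its counts against 0.322% and 0.346% in the other irradiated libraries. Results that rest on that library are given with and without it.

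Irradiation moved counts in both directions. Of 20472 genes, 5405 (26.4%) fell and 4960 (24.2%) rose at an adjusted p under 0.05 (edgeR's quasi-likelihood test with TMM scaling and Benjamini-Hochberg adjustment, used for every adjusted p given here). Leaving out both libraries numbered 1 gave 6147 falling and 6141 rising genes of 20730. Among 14424 protein-coding genes, 3726 (25.8%) fell and 4021 (27.9%) rose. These directions are relative to TMM scaling, under which the median log2 fold change (irradiated over nonirradiated) of all genes was -0.08. With library size alone as the scale the median of all genes was -0.84, with 11188 genes falling and 1553 rising. Gene groups are therefore read against the all-gene median, and with library size alone a group's median lies lower by close to the shift of all genes, so that medians a little above 0 turn negative. With the replicate number as a block in the model, 7228 genes (35.3%) fell and 6687 (32.7%) rose, and group counts that moved by over 1.5 times with it are given beside the group.

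By share of counts, the irradiated libraries gained small structured RNAs and lost protein-coding reads. In 20 pairs of overlapping entries, among them those of RN7SK and RN7SL1, the counts of both identifiers differed by no more than 2% in every library (with at least 1000 counts in all). Nearly the same reads were thus counted under both, and shares are given with each such locus taken once. Some pairs, such as H3C12 with H2AC17, are different genes whose exons overlap. Protein-coding genes held 88.0%, 87.1% and 88.0% of counts in the nonirradiated libraries and 77.0%, 81.4% and 81.6% in the irradiated ones. All irradiated values lay below all nonirradiated ones, with means of 87.7% ± 0.544 and 80.0% ± 2.61 (SD, n = 3 each). An exact two-sided permutation test gave p = 0.1, the smallest value that 3 against 3 libraries allow. Small nuclear RNA, a class that includes the 7SK RNA, rose from 2.18% ± 0.302 to 5.04% ± 0.352 of counts, and the RNA components of RNase P and RNase MRP went from 1.52% ± 0.197 to 4.83% ± 0.942 (SD, n = 3). Small nucleolar RNA (snoRNA) went from 0.476% ± 0.0581 to 1.3% ± 0.0516, with no overlap between the groups in any of these 3 classes (exact permutation p = 0.1 each, the smallest possible).

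The shift of the protein-coding share rested on a handful of genes. With every listed gene counted as deposited the difference was -12.665 percentage points, and without the 10 genes with the most counts it was 0.049 percentage points. Ribosomal protein genes within the protein-coding class went the other way, from 7.75% ± 0.697 to 17.7% ± 1.87 of counts (SD, n = 3). The share of lncRNA depended on the double listings. It was 6.53% ± 0.459 before and 6.66% ± 0.246 after irradiation as deposited, and 5.66% ± 0.592 and 3.81% ± 0.298 (SD, n = 3 each) with each locus once, since copies of RN7SK, RPPH1 and other structured RNAs carry a lncRNA or miscellaneous RNA label.

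**Figure D1:**
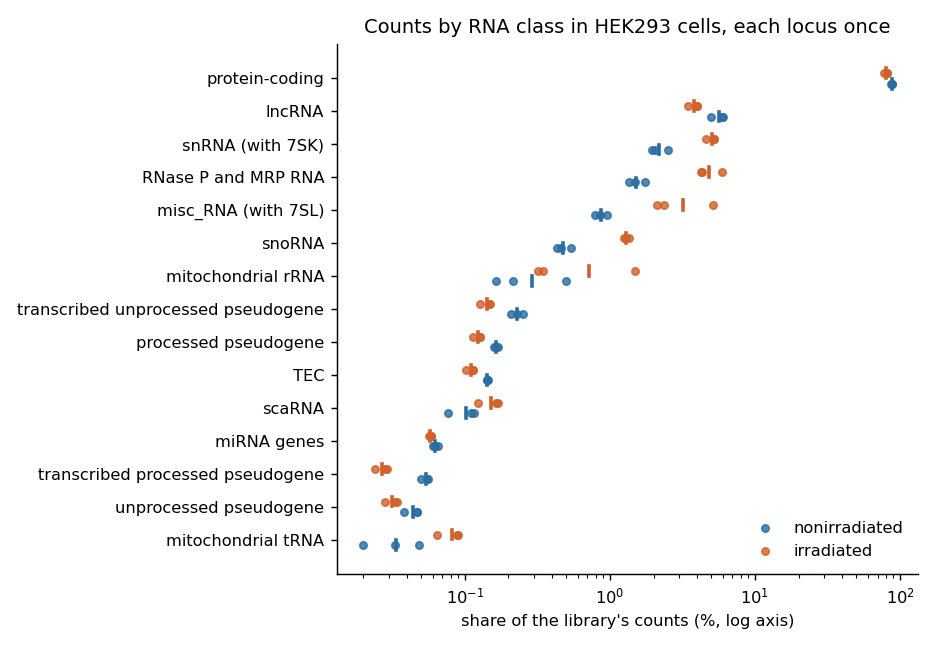
Share of each HEK293 library's counts by RNA class, with each locus counted once, in percent on a log axis; points are the 3 nonirradiated and 3 irradiated libraries and vertical bars their means. Points of small nuclear RNA, RNase P and MRP RNA and snoRNA lie higher in every irradiated library, and protein-coding and lncRNA points lie lower.

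The 7SK, 7SL, RNase P and RNase MRP RNAs rose, with all 6 annotated genes tested past the threshold. RN7SK (chr6:52995621-52995948, hg38, plus strand), the RNA that holds the elongation factor P-TEFb inactive, had normalized counts (counts divided by DESeq2 size factors) of 151862.5, 179788 and 131885 in the nonirradiated libraries and of 574448, 561225 and 550239 in the irradiated ones. The groups did not overlap, and the log2 fold change was 1.87 ± 0.15 (SE; adjusted p = 3.8e-05). RPPH1 (chr14:20343075-20343407, minus strand), the RNA of RNase P, which trims precursor tRNAs, went from 92898, 72460.5 and 66141.5 to 550388.5, 329306 and 337284 normalized counts, a log2 fold change of 2.39 ± 0.22 (adjusted p = 5.8e-05). RMRP, the RNA of the related RNase MRP, which acts in ribosomal RNA processing, changed by 2.17 on the log2 scale. The 3 annotated 7SL genes, RN7SL1 and RN7SL2 among them, encode the RNA of the signal recognition particle, and all rose, with a median log2 fold change of 2.73. RN7SL1 (chr14:49586580-49586878, plus strand) had 51651, 44798 and 38886.5 normalized counts without UV against 501928, 197623 and 170006 with it. Irradiated library 1 stood above the other irradiated libraries, and without it the log2 fold change of RN7SL1 was 2.06 in place of 2.67 (adjusted p = 1.9e-05). The 7SL copies are nearly identical in sequence, as are many U1 and U2 genes, so counts on single copies are uncertain.

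TERC, the template RNA of telomerase, had 448, 626 and 647 normalized counts without UV and 2167, 2292 and 2566 with it, a log2 fold change of 2.03 ± 0.18 (adjusted p = 4.8e-05). VTRNA1-3, a component of the vault particle, rose by a log2 fold change of 1.70 (adjusted p = 0.00022). RNY1, a Y RNA of the Ro particle, was at 8.5, 4.8 and 0.7 normalized counts without UV and at 23, 11.3 and 13 with it. Its adjusted p was 0.038, and between 0.054 and 0.094 when any library but nonirradiated library 1 was left out.

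The spliceosomal RNAs followed. Of 15 U1 and U2 genes tested, out of 100 in the files, 13 rose and none fell, with a median log2 fold change of 1.44 (6 to 12 rose when single libraries were left out, fewest without nonirradiated library 2 or 3 or irradiated library 1). RNU2-2P, a U2 gene, moved from 2433, 2534 and 1796 to 7606.5, 7137 and 7152 normalized counts, a log2 fold change of 1.70 (adjusted p = 5.8e-05). All 191 of its exon bases lie within exons of the protein-coding gene WDR74. RNU4-2, a U4 gene, which pairs with U6 before splicing, moved from 558, 628 and 607 to 2539.6, 2302 and 2510.1 (log2 fold change 2.04, adjusted p = 3.1e-05). Of 9 genes for U4, U5 and U6, 6 rose, and all 3 tested RNAs of the minor spliceosome did, RNU12 by 1.83 and RNU11 by 0.98 on the log2 scale. In the whole small nuclear RNA class, which includes RN7SK and genes of these families, 25 of 42 genes rose and 5 fell. No gene of the U1, U2, U4, U5, U6 or minor families fell. Without nonirradiated library 2 or 3 as few as 16 genes of the class rose.

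Among snoRNAs, the guide families differed in how many members moved. H/ACA snoRNAs guide pseudouridylation of ribosomal RNA, and 46 of 90 rose and 5 fell, with a median log2 fold change of 1.05. C/D snoRNAs guide ribose methylation, and 29 of 99 rose and 11 fell, with a median of 0.10 (-0.67 with library size alone). The shares were 51.1% rising and 5.56% falling for H/ACA and 29.3% and 11.1% for C/D, against 24.2% and 26.4% of all genes. Of these genes, 36 H/ACA (median 1.43) and 25 C/D (median 0.38) shared no exon base with another gene. The 11 falling C/D genes became 17 with the replicate block and as few as 1 when 1 library was left out. With at least 10 counts required in every library the C/D median stood 0.92 above that of all genes, against 0.17 without that filter, and the H/ACA median stood 1.47 above it, against 1.13. The difference between the families was not tested. U3, U8 and U13, C/D-type RNAs that act in cleavage and maturation of ribosomal RNA, all rose (4 of 4 genes tested). SNORD3A (chr17:19188016-19188714, plus strand), a U3 gene, had 27770.2, 20119 and 18044 normalized counts without UV and 123678, 95045 and 89562 with it (log2 fold change 2.23, adjusted p = 4.9e-05). SNORA73A, an H/ACA RNA, moved from 1144, 1231 and 938 to 4549, 4352 and 4169.5 (log2 fold change 1.98). All 206 of its exon bases lie within exons of the lncRNA gene SNHG3.

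Small Cajal body RNAs (scaRNAs) guide the modification of spliceosomal RNAs, and 10 of 13 rose while 1 fell, with a median log2 fold change of 2.00. SCARNA10 moved from 2393, 3592 and 3081 to 11734, 14974 and 14816.5 normalized counts (log2 fold change 2.20, adjusted p = 4.8e-05), and SCARNA13 changed by 2.05 on the log2 scale. SCARNA2 had 3076.5, 4791 and 4747 normalized counts without UV and 4288, 6432.5 and 6799.6 with it. Its groups overlapped and its log2 fold change was 0.48 with an adjusted p of 0.11 (8.7e-08 when the replicate number entered as a block) and -0.27 with library size alone.

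Transcripts of the mitochondrial genome did not move together. The 2 mitochondrial ribosomal RNAs had log2 fold changes of 2.03 (MT-RNR1) and 1.99 (MT-RNR2). Their groups overlapped (adjusted p = 0.031 and 0.034). Within each pair of libraries with the same number the irradiated one was higher. With the replicate block the adjusted p values were 4.2e-21 and 4.4e-21. Values this small draw on a spread estimated over all genes tested and not on these pairs alone. MT-RNR1, the small-subunit RNA, had 9109, 3854 and 2702 normalized counts without UV and 46949, 9266 and 8489 with it. Both libraries numbered 1 were the highest of their group. Without irradiated library 1 the log2 fold change of MT-RNR1 was 0.81 (adjusted p = 0.11), without nonirradiated library 2 or 3 its adjusted p was 0.092 and 0.10, DESeq2 gave 0.081, and without both libraries numbered 1 the log2 fold change was 1.46 (adjusted p = 1.9e-07). MT-RNR2 behaved alike, with a log2 fold change of 0.78 (adjusted p = 0.12) without irradiated library 1. Of the 13 messenger RNAs of the mitochondrial genome 4 rose (30.8%, against 24.2% of all genes) and none fell. Their median log2 fold change was 0.03 (-0.72 with library size alone). Their range ran from -0.27 (MT-ND4L, adjusted p = 0.046 with the replicate block) to 1.99 (MT-CO1). Without nonirradiated library 2, 7 of them rose and the median stood 0.96 above that of all genes, against 0.11 with all libraries. MT-CO1, a catalytic subunit of cytochrome c oxidase, had 3539.7, 4318 and 3491 normalized counts without UV and 19273, 13604 and 12344 with it (adjusted p = 5.8e-05). MT-CO3 of the same complex rose by a log2 fold change of 1.82. Of 22 mitochondrial tRNAs 6 rose (27.3%, against 24.2% of all genes) and none fell, with a median of 0.34. Without nonirradiated library 2, 11 of these tRNAs rose. With library size alone their median was -0.41, with 5 rising and 5 falling, and 1 fell with the replicate block. MT-TC and MT-TY, which lie side by side, rose by log2 fold changes of 2.34 and 2.32.

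Pseudogenes and unclassified transcripts lay on the other side of the median. Of 497 processed pseudogenes, copies of messenger RNAs inserted into the genome, 251 fell and 63 rose, with a median log2 fold change of -1.87. Of 258 genes of the TEC class, loci awaiting experimental proof, 136 fell and 22 rose, with a median of -1.57. These values depend on the filter, which was set on the nonirradiated libraries alone. With the filter set on the mean of all 6 libraries, 109 of 300 processed pseudogenes fell and 78 rose (median -0.36), while 106 of 199 TEC genes fell and 21 rose (median -1.23). SLC2A3P1, all 1451 of whose exon bases lie within exons of the protein-coding gene PANK3, fell by 2.87 on the log2 scale. It went from 304, 318 and 349 to 49.0, 45.4 and 38.9 normalized counts (adjusted p = 3.1e-05). ANKRD36BP1, a transcribed pseudogene, shares all 1779 exon bases with the protein-coding gene SFT2D2. It fell by 4.19, from 196, 169 and 160.1 to 12.3, 11.3 and 5.4 (adjusted p = 3.1e-05). RPS2P5, a copy of a ribosomal protein gene, rose from 1412, 1517 and 1575 to 5396, 4980.0 and 5222 (log2 fold change 1.79, adjusted p = 3.1e-05). Reads of such copies can come from their parent genes. Those of SLC2A3P1 and ANKRD36BP1 cannot be told apart from reads of PANK3 and SFT2D2 without strand.

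Within these classes the values were lower for genes inside introns. A gene was called intronic when it lay inside the span of a protein-coding or lncRNA gene, on either strand, and shared no exon base with any gene. Counts made without strand cannot tell reads on such a gene from reads of the unspliced RNA of its host. The part of host reads in these values was not tested. Of 471 intronic lncRNAs 285 fell and 19 rose (median -2.28), against 182 and 72 of 708 lncRNAs lying apart from other genes (median -0.46; 112 of these rose with the replicate block). Of 83 intronic TEC genes 63 fell and none rose (median -2.87; 1 rose with the replicate block), against 32 and 2 of 59 lying apart (median -1.85). With the filter on all 6 libraries, 167 of 272 intronic lncRNAs fell and 22 rose (median -1.95), and 40 of 47 intronic TEC genes fell and none rose (median -3.14). Requiring at least 10 counts in every library left 31 intronic lncRNAs, of which 8 fell and 10 rose, a filter that removes genes that fell to few reads. Intronic processed pseudogenes changed direction with the filter: 166 of 272 fell and 28 rose (median -2.64), 51 of 117 fell and 34 rose (median -1.14) with the filter on all libraries, and 2 of 22 fell and 17 rose (median 1.48) with at least 10 counts in every library.

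Intronic genes of small structured RNA classes differed by their nonirradiated level. Of 84 such genes 42 rose and 11 fell (median 1.04). At a nonirradiated mean of at least 5 CPM 17 of 17 rose (median log2 fold change 2.17), from 1 to below 5 CPM 19 of 35 rose and 3 fell (median 1.03), and from 0.5 to below 1 CPM 6 of 32 rose and 8 fell (median -0.52). The nonirradiated mean is also the base of the fold change and of the filter. Genes that are high there by spread alone thus enter with lower fold changes, and their part in the trend was not tested. Of the 57 intronic snoRNAs among the 84 genes 24 rose and 6 fell (median 0.76; 19 and 14 with a median of -0.01 with library size alone, and 10 falling with the replicate block), and all 5 intronic scaRNAs rose. With the filter on all 6 libraries 26 of 49 intronic snoRNAs rose and 2 fell (median 1.09). At a mean of at least 5 CPM, 27 of 46 intronic genes of the longer classes fell and 8 rose, with a median of -1.33. Most snoRNAs are excised from introns of host genes.

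**Figure D2:**
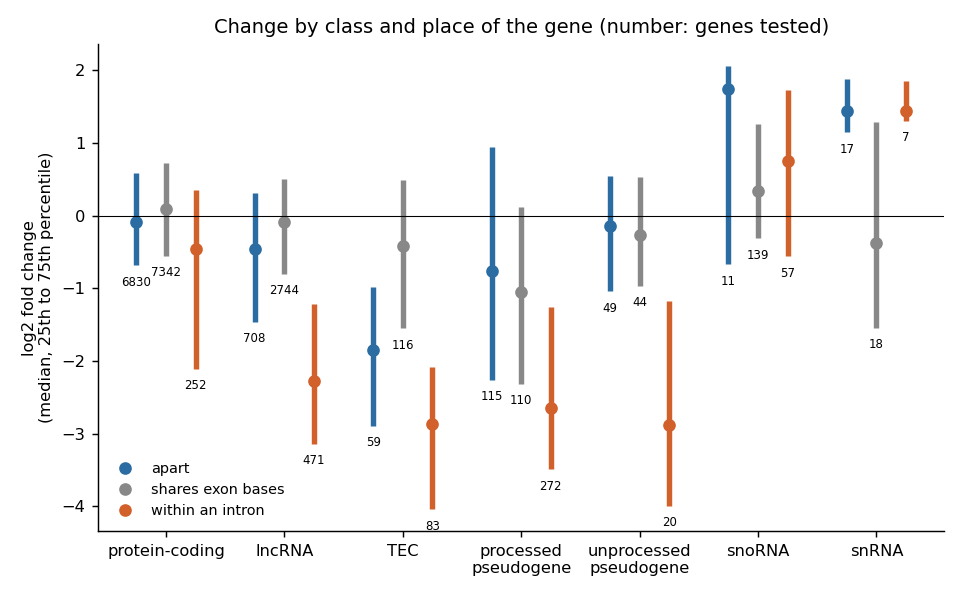
Log2 fold change by RNA class and place of the gene, shown as the median (point) and the 25th to 75th percentile (bar) with the number of genes tested under each bar. The intronic points of lncRNA, TEC, processed pseudogene and unprocessed pseudogene loci lie between -2.28 and -2.88, and those of intronic snoRNA and small nuclear RNA genes lie at 0.76 and 1.44.

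Cytosolic ribosomal protein genes, which encode the protein part of the ribosome, rose in 84 of 86 cases and fell in none, against 27.9% and 25.8% of protein-coding genes, with a median log2 fold change of 1.87 and a 25th to 75th percentile of 1.75 to 2.00. The median was 1.10 with library size alone. RPS19, a small-subunit protein, had 14855, 19388.5 and 18515.5 normalized counts without UV and 65849.8, 75634 and 80142 with it (log2 fold change 2.08, adjusted p = 3.8e-05). RPL4, a large-subunit protein, changed less, by 1.28 on the log2 scale.

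Ribosomal protein messenger RNAs are known for starting with a C followed by an unbroken run of pyrimidines, the 5′ terminal oligopyrimidine motif. A start of C and at least 4 further pyrimidines was searched at the RefSeq start site on the gene's own strand (GRCh38.p14). It was present in 44 of the 68 ribosomal protein genes matched to a start site (64.7%), in 555 of 11340 other protein-coding genes (4.89%) and in 5.25% of all matched starts. The starts of 3 genes of this family with large rises are shown because each carries this start. Each has 10 bases before the start and 20 from the start on, with the run of pyrimidines from the start base in capitals.
RPS19, chr19:41860245-41860274, plus strand: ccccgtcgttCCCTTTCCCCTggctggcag
RPS27, chr1:153990752-153990781, plus strand: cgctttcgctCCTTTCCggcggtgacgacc
RPL35, chr9:124861938-124861967, minus strand: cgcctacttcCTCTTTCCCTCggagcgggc
RPS27 and RPL35 rose by log2 fold changes of 2.18 and 2.19. Other protein-coding genes with this start rose in 33.5% and fell in 21.8% of cases (median log2 fold change 0.12), and those without it rose in 27.2% and fell in 27% (median -0.02), a difference that was not tested. A match is a run of letters at an annotated start and no measured start site.

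Replication-dependent histone genes, expressed in S phase and ending in a stem-loop in place of a poly(A) tail, rose in 44 of 48 cases and fell in none, with a median log2 fold change of 1.97 (1.19 with library size alone). H1-4, a linker histone, had 9118, 5407 and 6301 normalized counts without UV and 37447, 22317 and 28511 with it, a log2 fold change of 2.08 ± 0.24 (adjusted p = 0.00015). Library 1 was the highest of either group. H4C3, a core histone, rose by a log2 fold change of 2.17. Without both libraries numbered 1, 45 of the 48 genes rose and none fell.

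The stem-loop was searched as GG, any 2 bases, CTTT, any 2 bases, AG, any 2 bases and CC on the gene's strand from 100 bases before to 100 after the annotated gene end (hg38). It lay in 28 of the 48 tested genes (58.3%) and in 1 of 14376 other protein-coding genes (0.00696%). Genes with the motif rose in 25 of 28 cases and genes without it in 19 of 20. The 16 bases of the motif are in capitals in the examples, which are shown because the motif was found in far more of these genes than of other protein-coding genes.
H1-4, chr6:26157088-26157117, plus strand: acccaaaGGCTCTTTTCAGAGCCacccacc
H1-2, chr6:26055737-26055766, minus strand: cccaaaaGGCTCTTTTCAGAGCCaccactg
H4C3, chr6:26104310-26104339, plus strand: acccaaaGGCCCTTTTCAGGGCCgctcaca
H3C13, chr1:149813221-149813250, minus strand: atctaaaGGCTCTTTTCAGAGCCactgccg
Replacement histones, which are polyadenylated and expressed throughout the cell cycle, rose in 7 of 11 cases and fell in none (2 with the replicate block; median log2 fold change 0.89), with H2AZ1 at 1.26 and H3-3B at 0.89.

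Genes for the respiratory chain encoded in the nucleus rose in 77 of 80 cases and fell in 1 (2 with the replicate block), with a median log2 fold change of 1.63 (0.85 with library size alone). COX7C, a small subunit of cytochrome c oxidase, had 2184, 1949 and 1974.5 normalized counts without UV and 7507, 6398.5 and 6372 with it (log2 fold change 1.73, adjusted p = 3.6e-05). ATP5F1B, a catalytic subunit of ATP synthase, rose by 0.96. Mitochondrial ribosomal protein genes rose in 68 of 79 cases and fell in 2 (median 1.37, or 0.59 with library size alone). MRPL54 had 247, 198 and 167.5 normalized counts without UV and 1217, 819 and 833.5 with it (log2 fold change 2.23, adjusted p = 5e-05). MRPL42, of the same particle, fell by 1.11 on the log2 scale, from 1744, 1709 and 1568 to 904, 824 and 601. Its exons add up to 16393 bases, against 1003 for MRPL54.

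Proteasome subunits rose in 39 of 48 cases and fell in 1 (3 with the replicate block; median 1.20), with PSMB4, a subunit of the catalytic core, at 1.39 and PSMD8, of the regulatory particle, at 1.65. Sm and LSm proteins, which form rings on spliceosomal RNAs, rose in 19 of 20 cases (median 1.25). SNRPD2 moved from 1980.0, 1873 and 1672 to 7758, 6093.5 and 6347 normalized counts (log2 fold change 1.87, adjusted p = 3.6e-05). Subunits of RNA polymerase II split by subunit: 9 of 13 rose and 3 fell. POLR2E rose by 1.49, and POLR2B, which encodes one of the large catalytic subunits, moved from 1810.0, 1392 and 1267 to 926, 956 and 837, a fall of 0.71 on the log2 scale (adjusted p = 0.0051).

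Actin and tubulin genes with their small partners rose in 24 of 35 cases (median 0.87), glycolytic enzymes in 12 of 17 (median 0.84) and subunits of the RNA exosome in 9 of 15 (median 0.67, or -0.11 with library size alone), with 0, 0 and 1 falling (2, 1 and 2 with the replicate block). GAPDH, a glycolytic enzyme often used as a reference, had 19487, 20751 and 18804 normalized counts without UV and 48539, 50654 and 50871 with it (log2 fold change 1.35, adjusted p = 5.8e-05). ENO1 and PKM of the same pathway changed by 0.84 and 0.85, and their values with library size alone were 0.07 and 0.09. Of 14 genes often used as references in RT-qPCR 10 rose and 2 fell, with a median of 0.71 that became -0.05 with library size alone.

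Translation factors were divided. Of 40 initiation factors 21 rose and 7 fell (median 0.63, or -0.14 with library size alone), and 12 fell with the replicate block and 4 without nonirradiated library 2. EIF4A1, the helicase of the cap-binding complex, rose by 1.03 on the log2 scale, whereas EIF4G1, its scaffold, had 5865, 3771 and 3648 normalized counts without UV and 4642, 3249.7 and 3096 with it (log2 fold change -0.28, adjusted p = 0.31, or 0.0015 with the replicate block). Of 11 elongation factors 8 rose and 1 fell (median 0.98). EEF1A1, which delivers aminoacyl-tRNA to the ribosome, changed by 0.76 (0.00 with library size alone) and EEF1G, an exchange factor subunit, by 1.44.

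Several groups had medians above 0 under TMM scaling and below 0 with library size alone. Medians were 0.74 for the 8 subunits of the TRiC chaperonin, 0.57 for 22 enzymes of the citric acid cycle, 0.49 for 33 genes of translocation and glycosylation at the endoplasmic reticulum, 0.40 for 20 cytosolic aminoacyl-tRNA synthetases and 0.36 for 22 enzymes of cholesterol synthesis. With library size alone these medians lay between -0.03 and -0.40, above the all-gene median of that scale. With the replicate block all 8 TRiC genes rose, against 5 without it and 2 to 8 with 1 library left out, and 15 synthetase genes rose, against 9.

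**Figure D3:**
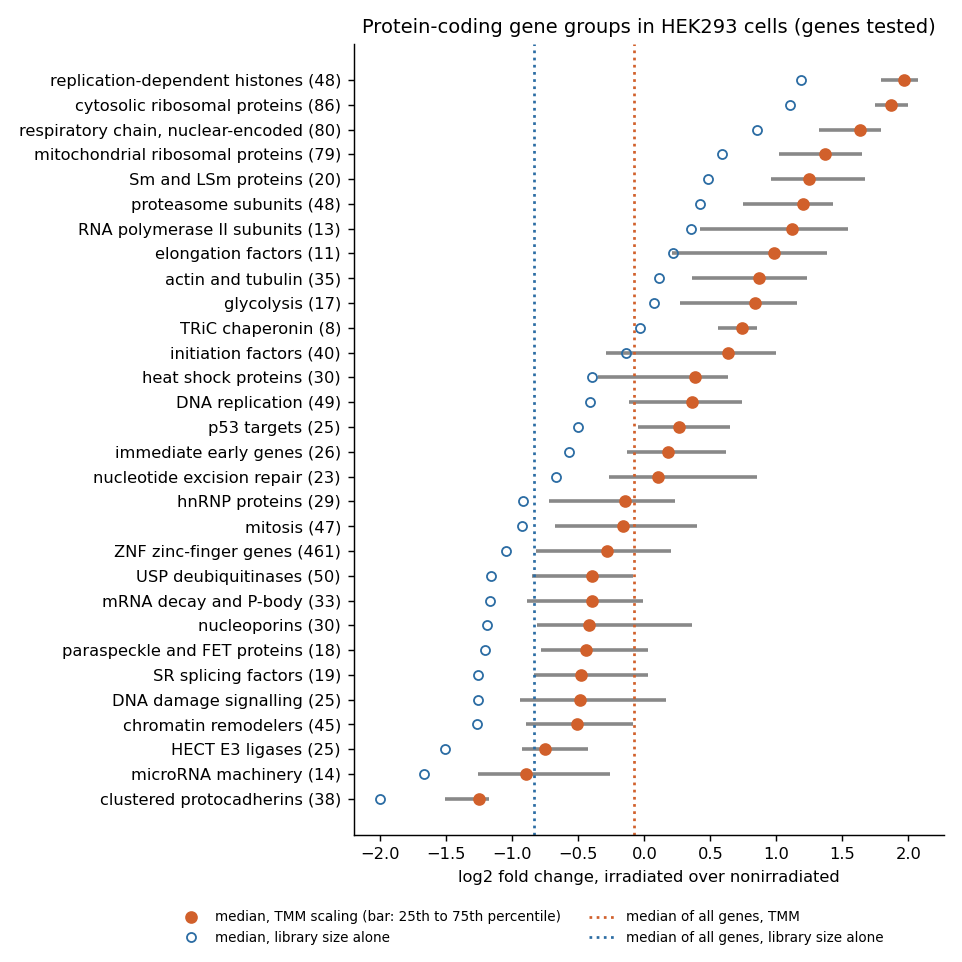
Median log2 fold change, irradiated over nonirradiated, of protein-coding gene groups with the number of genes tested; filled points with bars are the median and the 25th to 75th percentile under TMM scaling, open points the median with library size alone, and dotted lines the median of all genes under each scale (-0.08 and -0.84). Histones and ribosomal proteins lie at the top and clustered protocadherins at the bottom on both scales.

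HECT-type ubiquitin ligases fell in 16 of 25 cases and rose in none (median -0.75; 23 fell and 1 rose with the replicate block), against 25.8% falling among protein-coding genes. HUWE1 (chrX:53532096-53686729, minus strand), a ligase acting on p53 and histones, had 5365, 4739 and 4461 normalized counts without UV and 2760.3, 2481 and 2368.5 with it (log2 fold change -0.94 ± 0.13, adjusted p = 0.00044). TRIP12 changed by -0.88. Ubiquitin-specific proteases fell in 20 of 50 cases and rose in 2 (median -0.40), and 30 fell and 5 rose with the replicate block. USP9X (chrX:41085635-41236579, plus strand) moved from 3809, 4642.5 and 3740.3 to 1269, 1837 and 1684 (log2 fold change -1.34, adjusted p = 0.00036). USP24 changed by -1.41.

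The microRNA machinery fell in 10 of 14 cases and rose in 2 (median -0.90). DICER1 (chr14:95086228-95158010, minus strand), the nuclease that cuts precursor microRNAs, had 1950.4, 1273 and 1071 normalized counts without UV and 493.5, 269.9 and 285 with it (log2 fold change -2.04 ± 0.28, adjusted p = 0.00036). LIN28B, which blocks maturation of let-7, changed by -1.31. TARBP2, the partner of Dicer, was the highest of the list at 0.88. Genes for mRNA decay and P-bodies fell in 15 of 33 cases and rose in 2 (median -0.40; 5 rose with the replicate block). DCP2 (chr5:112976702-113020970, plus strand), the decapping enzyme, moved from 2414.5, 2142 and 2148 to 627, 582 and 580.5 (log2 fold change -1.90, adjusted p = 3.1e-05), and DDX6, a helicase of P-bodies, changed by -1.75.

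SR proteins and their relatives, splicing regulators, fell in 9 of 19 cases and rose in none (median -0.48), and 12 fell and 3 rose with the replicate block. SRSF1, which binds exonic enhancers, had 4683, 3073 and 3171 normalized counts without UV and 1830.0, 1344 and 1498 with it (log2 fold change -1.23, adjusted p = 0.00078). Paraspeckle and FET proteins fell in 9 of 18 cases and rose in none (median -0.44). Without irradiated library 2, 5 fell, and with the replicate block 1 rose. MATR3, a nuclear matrix protein, changed by -0.69. It entered the list under more than 1 identifier, and these entries share exon bases. Among hnRNP proteins, which coat nascent RNA, 10 of 29 fell and 1 rose (median -0.15), and 14 fell and 8 rose with the replicate block. With 1 library left out 4 to 11 fell, the fewest without irradiated library 2 or 3. HNRNPU changed by -0.85, with an adjusted p of 0.013 that became 0.068 and 0.057 without irradiated library 2 or 3.

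Chromatin remodelers fell in 23 of 45 cases and rose in 3 (median -0.51; 7 rose with the replicate block). HELLS, a remodeler needed for DNA methylation, moved from 2011, 1887 and 1821 to 1002, 846 and 845 normalized counts (log2 fold change -1.09, adjusted p = 0.00017). Nucleoporins fell in 14 of 30 cases and rose in 4 (median -0.42; 10 rose with the replicate block, and 2 to 8 with 1 library left out, moving past 1.5 times for each nonirradiated library and irradiated library 2), with NUP155 at -1.16, NUP205 at -0.77 and TPR, the filament of the nuclear basket, at -1.05. ZNF genes, mostly transcriptional repressors with zinc fingers, fell in 176 of 461 cases and rose in 68 (median -0.28). Mitotic genes fell in 19 of 47 cases and rose in 11 (median -0.16; as few as 5 rose without nonirradiated library 2 or 3), and CENPF, a kinetochore protein, changed by -1.15 and TOP2A, which untangles chromosomes, by -0.85. Solute carriers fell in 76 of 244 cases and rose in 34 (median -0.29), collagens and laminins in 17 of 47 with 2 rising (median -0.40; as few as 9 fell without nonirradiated library 2 or 3), receptor tyrosine kinases in 10 of 34 with 1 rising (median -0.42) and kinesins in 15 of 38 with 3 rising (median -0.28). In that order the falling shares were 31.1%, 36.2%, 29.4% and 39.5%, against 25.8% of protein-coding genes. With the replicate block 59 solute carriers, 9 collagens and laminins, 3 receptor tyrosine kinases and 8 kinesins rose, and 16 receptor tyrosine kinases fell. Of all genes 32.7% rose and 35.3% fell with that block. With 1 library left out, 1 to 5 collagens and laminins rose, moving past 1.5 times for every library but irradiated library 2, and 2 to 6 kinesins, moving so without library 1 of either group. The 36 HOX genes (10 fell, 3 rose, median -0.17) and 56 RAB GTPases (20 fell, 13 rose, median -0.10) lay near the all-gene median, and 8 HOX genes rose with the replicate block. Leaving out irradiated library 3 left 6 falling HOX genes and leaving out irradiated library 2 left 13 falling RAB genes.

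Clustered protocadherins, neuronal adhesion proteins some of which join separate first exons to shared last exons, fell in 31 of 38 cases and rose in none (median -1.25). All of them share exon bases with some other gene, as PCDHGB5 does with PCDHGC3 of the cluster. A read can thus count for several genes, and the members are not separate measurements. PCDHGB5 had 152, 81.4 and 98.7 normalized counts without UV and 59.8, 57.8 and 56.2 with it (log2 fold change -0.93, adjusted p = 0.013). Nonirradiated library 1 was the highest, and without both libraries numbered 1, 23 of the 38 fell, with a median of -0.86. Without irradiated library 3 alone, 11 fell.

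Genes of nucleotide excision repair, which removes UV lesions from DNA, rose in 8 of 23 cases and fell in 4 (median 0.10, or -0.67 with library size alone), and 7 fell with the replicate block. For comparison, 27.9% of protein-coding genes rose and 25.8% fell. The shares were 34.8% and 17.4% for excision repair, 36% and 20% for p53 targets and 23.1% and 3.85% for immediate early genes. DDB1, of the damage sensor, had a log2 fold change of -0.32 (adjusted p = 0.075, or 0.00024 with the replicate block). Of 25 p53 targets 9 rose and 5 fell (median 0.26, or -0.50 with library size alone). MDM2, the ligase for p53 and one of its targets, moved from 2839, 2843 and 3404.5 to 1248, 1246 and 1375, a fall of 1.23 on the log2 scale (adjusted p = 0.00015). Immediate early genes rose in 6 of 26 cases and fell in 1 (median 0.18, or -0.57 with library size alone; as few as 3 rose without irradiated library 2 or 3, and 3 fell with the replicate block), with MYC at -0.15 (adjusted p = 0.46). Heat shock proteins rose in 11 of 30 cases and fell in 5 (median 0.38, or -0.40 with library size alone), and 17 rose and 9 fell with the replicate block. HSP90AA1 had a log2 fold change of 0.37 (adjusted p = 0.31, or 1.4e-05 with the replicate block), and -0.41 with library size alone.

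Genes of DNA damage signalling fell in 16 of 25 cases and rose in 3 (median -0.49; 5 rose with the replicate block). PRKDC, the catalytic subunit of the DNA-dependent protein kinase, had 12373, 12247 and 11458 normalized counts without UV and 4276, 4024 and 3994 with it, a log2 fold change of -1.55 ± 0.12 (adjusted p = 3.8e-05). DNA replication genes went the other way, with 25 of 49 rising and 9 falling (median 0.36, or -0.41 with library size alone), and 1 to 6 fell when single libraries were left out. Metallothioneins, small metal-binding proteins, were tested for 3 of 10 genes, of which 2 rose.

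Among single protein-coding genes, the 10 largest falls and rises were taken from genes with a mean of at least 5 CPM, an adjusted p under 0.05 and no overlap between the groups, a condition that 32.1% of all genes met with every irradiated library lower and 27% with every irradiated library higher. The largest fall was that of MARCHF1 (chr4:163524298-164384050, minus strand), a membrane ubiquitin ligase that turns over MHC class II, with 65.9, 87.0 and 102 normalized counts without UV and 7.7, 3.4 and 3.2 with it (log2 fold change -4.20 ± 0.36, adjusted p = 4.3e-05). PTAR1 (chr9:69709522-69759959, minus strand), a prenyltransferase subunit, moved from 951, 1517 and 1899.7 to 188.5, 209.8 and 256 (log2 fold change -2.73, adjusted p = 6.9e-05). POU2F1 (chr1:167220829-167427345, plus strand), the octamer-binding factor Oct-1, moved from 849, 814 and 763 to 136, 130.4 and 140.5 (log2 fold change -2.57, adjusted p = 3.1e-05).

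TTN (chr2:178525989-178830802, minus strand), the gene of the giant muscle protein titin, had 1083, 1115 and 1127 normalized counts without UV and 176, 195 and 199 with it (log2 fold change -2.54, adjusted p = 3.1e-05), and shares exon bases with its antisense gene TTN-AS1. The other large falls were SCUBE3 (-2.75), the zinc-finger genes ZBTB37 (-2.58) and ZNF736 (-2.51), the glycosyltransferase ALG10B (-2.56), and a pair whose exons overlap another gene. These were KCNRG (-2.89), which shares 1086 of 1625 exon bases with TRIM13, and CFAP126 (-2.68), all 774 of whose exon bases lie within exons of SDHC.

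The 10 largest rises held ribosomal proteins (RPS29 at 2.22, RPL35, RPS27), histones (H3C13 at 2.24, H2BC10 at 2.22, H2AC15 at 2.17, H4C3), MRPL54, WDR38 and APOC1. APOC1, a small lipoprotein component, had 27.9, 39.5 and 37.4 normalized counts without UV and 188.5, 156.5 and 162 with it (log2 fold change 2.27, adjusted p = 4.4e-05). WDR38 moved from 225, 292 and 224 to 1215, 1299 and 1338 (log2 fold change 2.38, adjusted p = 3.1e-05). WDR38 lies on the strand opposite RPL35 with 11 shared exon bases, and H2AC15 shares all 393 exon bases with H2BC15, so their reads cannot be told apart from those of the neighbours without strand.

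**Figure D4:**
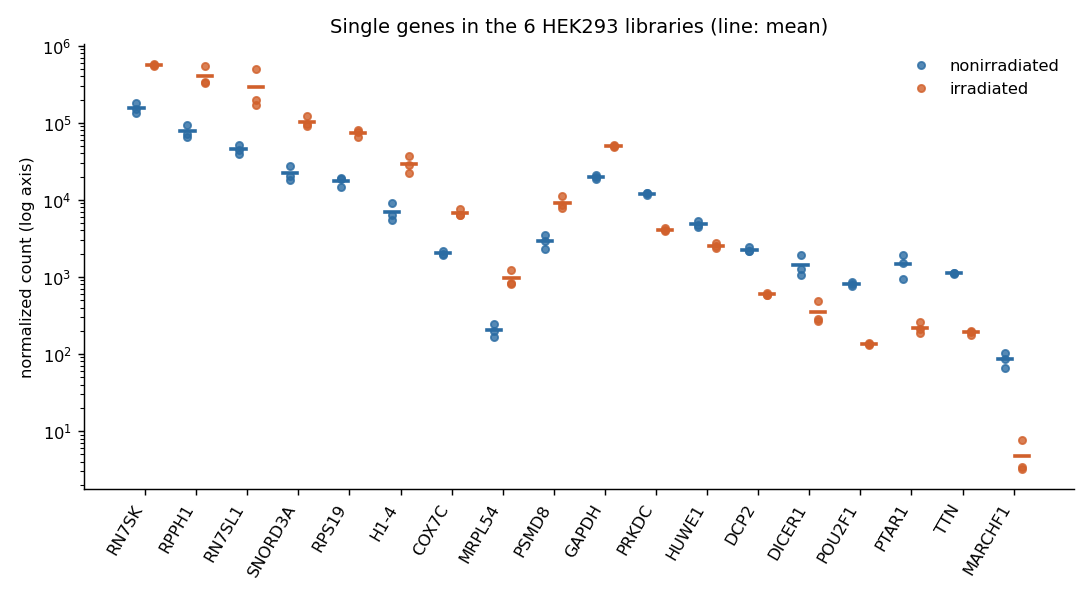
Normalized counts of single genes in each of the 6 HEK293 libraries on a log axis, with lines at the group means. From RN7SK to GAPDH every irradiated point lies above the nonirradiated ones, and from PRKDC to MARCHF1 every irradiated point lies below them.

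Exon length, the merged length of all annotated exons of a gene over its transcripts, ran along with the change across protein-coding genes. In the shortest of 10 equal bins by exon length (105 to 2032 bases), 936 of 1443 genes rose (64.9%) and 87 fell (6.03%), with a median log2 fold change of 1.07. In the longest bin (10598 to 118976 bases), 68 of 1443 rose (4.71%) and 861 fell (59.7%), with a median of -0.75. Every bin between had a lower median than the bin before it. Across the 14424 genes, which share the same 6 libraries and are no independent replicates, Spearman's rho with the log2 fold change was -0.51 for exon length, -0.477 for 3′ UTR length, -0.412 for coding length, -0.243 for 5′ UTR length and -0.225 for the number of exons, and 0.424 for GC content. Length, 3′ UTR and GC content are related to each other, and their separate parts were not tested.

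With genes also split into 4 bins by coding length and 4 by 3′ UTR length, the median fell with 3′ UTR length in each coding bin and with coding length in each 3′ UTR bin. Genes in the shortest bin of both had a median of 1.20, genes in the longest bin of both -0.78. GC content and 3′ UTR length combined in the same manner: of 1572 genes in the lowest of 4 GC bins with the longest 3′ UTRs 1104 fell (70.2%, median -0.91), and of 1470 in the highest GC bin with the shortest 3′ UTRs 819 rose (55.7%, median 0.79).

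**Figure D5:**
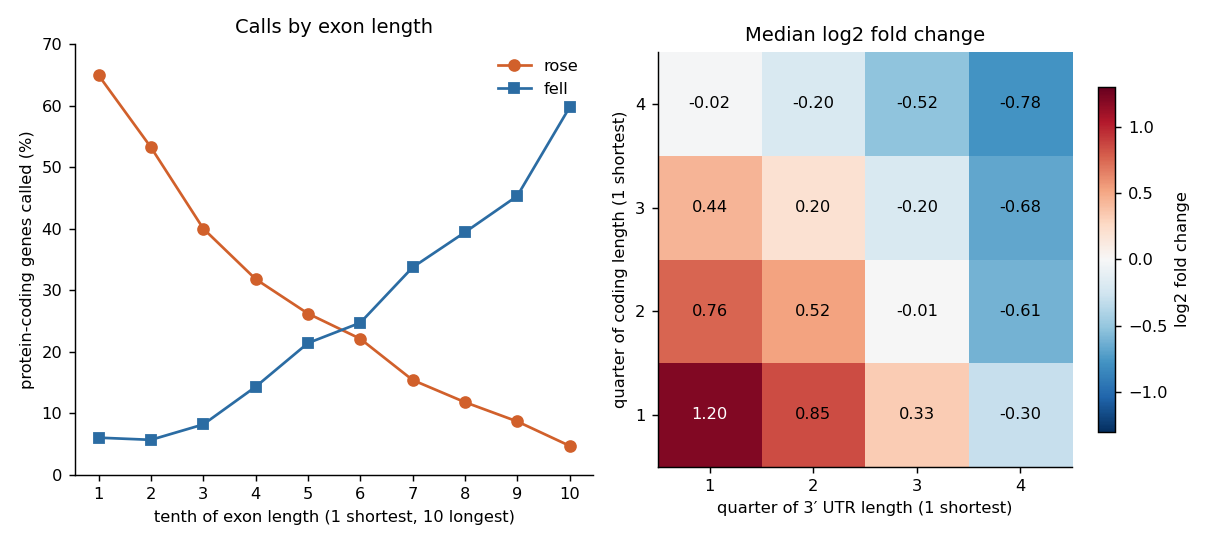
Left, percent of protein-coding genes that rose or fell in each of 10 bins of exon length from shortest to longest. Right, median log2 fold change in 4 bins each of 3′ UTR length (horizontal) and coding length (vertical), from 1.20 for short and short to -0.78 for long and long.

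Some genes went against their exon length, which can exceed the length of any single transcript of the gene. The following were picked after their values were seen. TMED3, a cargo receptor of the secretory pathway with 19470 exon bases, rose from 721, 669 and 696 to 1709, 1395 and 1679.9 normalized counts (log2 fold change 1.20, adjusted p = 0.00013). SEM1, a small proteasome subunit with 11490 exon bases, rose by 1.5 on the same scale. Their coding sequences hold 654 and 387 bases and their 3′ UTRs 626 and 2233 bases. Among genes in the shortest bin, HOXD9 (1870 exon bases) changed by -1.49 and RAB39A (1830) by -1.40, and POMK, a kinase acting on a glycan of dystroglycan, by -1.76. POMK had 1877 exon bases in the counted annotation but a 3′ UTR of 8303 bases in a later GENCODE release.

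HepG2, a hepatocellular carcinoma line and the other human line of the series, served as the comparison. Of 16759 genes expressed in both lines, the UV effect differed for 1331 (7.94%), higher in HEK293 for 812 (4.85%) and lower for 519 (3.10%), by edgeR's interaction test. With the replicate block the count was 3531. The lines also differed in the sequencer, in sequencing depth and in the version of the counting tool, which cannot be told apart from the cell type. ZNF genes stood higher in HEK293 for 48 and lower for 3 of 435 tested, against 4.69% and 3.60% of protein-coding genes. Transcribed unprocessed pseudogenes stood higher for 40 and lower for 1 of 218. Ribosomal protein genes stood higher for 0 and lower for 5 of 85, and solute carriers higher for 7 and lower for 14 of 216. Of the 13 mitochondrial messenger RNAs 0 stood higher and 1 lower in HEK293. Their median log2 fold change was 0.03 in HEK293 and 1.38 in HepG2, so the few calls do not show equal effects.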

How the data were processed

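RNA from 6 HEK293 samples, and from 6 HepG2 samples for the comparison, was sequenced after ribosomal RNA depletion. The authors deposited whole-number read counts per gene. Per the labels and file headers, reads were aligned to hg38 with TopHat2 2.1.1 and counted over GENCODE 28 exons with featureCounts (1.6.1 for HEK293, 1.5.3 for HepG2), with a read on overlapping genes counted for each of them and without use of strand. The labels name a stranded kit and the methods an unstranded one. Symbols and classes were taken from GENCODE 44 by identifier (98.93% matched).

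Genes with a mean of at least 0.5 CPM in nonirradiated libraries were tested with edgeR 4.0.16 (quasi-likelihood, TMM, Benjamini-Hochberg; R 4.3.3). DESeq2 1.42.0 gave the size factors behind normalized counts and an alternative test. Shares were compared by exact permutation. HEK293 samples with the same number deviated from their group means together (correlations 0.589, 0.302 and 0.391). Samples 2 and 3 of unlike number also did (0.22 and 0.236). The numbers thus set the samples numbered 1 apart and pair samples 2 and 3 less clearly. The main fit left the numbers out, and a fit with them as a block was an alternative. On simulated counts for 20009 genes of the HEK293 comparison, 68% of log2 changes of 1 and 100% of changes of 2 were recovered, with 3.4% of calls false. The simulation changed only a small set of genes above the lowest levels, as many up as down, and held no replicate effects. In the data 50.6% of genes were called, so these rates need not hold there.

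Named genes were drawn from the 3 members of each list with the highest nonirradiated CPM, the 3 such genes of each noncoding class other than lncRNA, the 10 genes with the most counts, and the 10 largest rises and falls; extremes of a list and exceptions by length were picked after their values were seen. The members and lists were chosen with earlier results of these data known. The depth of 9444707 to 11188033 counts a library limits precision for genes near the minimum of 0.5 CPM, which hold few counts in a library. Figures were drawn with matplotlib 3.10.9. Neuro2a and hippocampal samples were not used here.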

Additional observations from a re-analysis of the deposited data

Results flagged for a closer look

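Among the genes named in the report, 6 had a UV effect that differed between HEK293 and HepG2 cells by edgeR's interaction test at an adjusted p under 0.05. The difference is the log2 fold change in HEK293 minus that in HepG2, from a joint fit, and 3 libraries stood behind each of the 4 groups. SNORD3A, the U3 snoRNA gene, rose in both lines and less in HEK293 (log2 fold change 2.23 against 3.49, difference -1.16 ± 0.24 SE, adjusted p = 0.011). RNU2-2P, the U2 gene, rose less in HEK293 as well (1.70 against 2.70, difference -0.89, adjusted p = 0.013), as did WDR38 (2.38 against 3.34, difference -0.85, adjusted p = 0.037) and TMED3 (1.20 against 1.91, difference -0.61, adjusted p = 0.028). DCP2, the decapping enzyme, fell in both lines and further in HEK293 (-1.90 against -1.19, difference -0.61, adjusted p = 0.019). HELLS fell less in HEK293 (-1.09 against -1.53, difference 0.55, adjusted p = 0.031).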

How the results depend on the processing

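The counts of genes that fell and rose stayed within 1.5 times of 5405 and 4960 under the other size factors, DESeq2, the other filters and the replicate block, and ran from 4125 to 5346 and from 4013 to 5053 with 1 library left out. With library size alone they were 11188 and 1553, through the shift of all genes. Genes differing between HEK293 and HepG2, 1331 in all, were 3015 with library size alone, 2013 by DESeq2, 790 with at least 10 counts in every library, 3531 with the replicate block, 2149 without both HEK293 libraries numbered 1 (an alternative chosen after seeing the data) and 750 to 1929 with 1 library left out (774, 750 and 788 without HepG2 irradiated library 1, 2 or 3 and 813 without HEK293 irradiated library 2). The cause was not tested. The difference in the protein-coding share, -12.665 percentage points as deposited, was 0.049 without the 10 genes with the most counts, -4.468 over genes sharing no exon base, -7.712 with each locus once and -13.749 to -10.665 with 1 library left out. Of 97 named genes, HSP90AA1 (-0.41) and SCARNA2 (-0.27), neither past the threshold, changed sign with library size alone, and 11 others lost and 4 gained a call. With the replicate block 7228 genes fell and 6687 rose, 5 named genes gained a call and the other 92 kept theirs. Genes near 0.5 CPM hold few counts in a library, which limits the precision of their values.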
